A study of Mus musculus with 1 sample.

Results

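Retinol reaches cells bound to a carrier, is stored as an ester or oxidised to retinal and then to retinoic acid, and 9 genes of this route were followed through the cells of the mouse pancreas: Rbp4, Stra6, Lrat, Dhrs3, Aldh1a1, Aldh1a2, Aldh1a3, Crabp1 and Crabp2. They were taken by symbol from the 32285 genes of the count table, for what they are known to do, and all 9 were listed. The material was 1 droplet single-cell RNA library (10x Genomics 3′ chemistry) made from pooled pancreata of mice at 2 weeks of age with the genotype Scap f/f, titled wildtype. In these mice the gene for SCAP, the sterol sensor that escorts SREBP transcription factors out of the endoplasmic reticulum, is flanked by loxP sites, and the labels of the library name no Cre. The study compared such pancreata with those in which Scap was deleted, and the library of deleted pancreata was not analysed here. With 1 library and no map from cells to mice there was no replicate, so no test between conditions or classes was made and every interval covers counting error only.

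Retinoids in tissue follow a short chain of steps. RBP4 carries retinol in blood and STRA6 is a membrane receptor for that complex. Inside the cell LRAT joins retinol to a fatty acid for storage in lipid droplets, the store for which stellate cells of liver and pancreas are known. Retinol is otherwise oxidised to retinal, a step that DHRS3 runs in reverse, and the retinal dehydrogenases ALDH1A1, ALDH1A2 and ALDH1A3 turn retinal into retinoic acid, the ligand of nuclear receptors. CRABP1 and CRABP2 bind retinoic acid in the cytoplasm. Retinoic acid is needed for the early growth of the dorsal pancreas, and Aldh1a2 is its main source in embryonic mesoderm.

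All 9 genes are protein coding in GENCODE release M21, which annotates GRCm38, also called mm10. Lrat lies at chr3:82892579-82903973 on the minus strand and Crabp2 at chr3:87948666-87953376 on the plus strand. Stra6 at chr9:58063788-58153996, Aldh1a2 at chr9:71215789-71296243 and Crabp1 at chr9:54764748-54773110 share chromosome 9 and the plus strand. Rbp4 lies at chr19:38116629-38125281 on the minus strand and Aldh1a1 at chr19:20492715-20643465 on the plus strand, Aldh1a3 at chr7:66390890-66427517 on the minus strand and Dhrs3 at chr4:144892827-144928209 on the plus strand. The annotated bodies of Lrat, Stra6 and Aldh1a1 overlap other listed genes, namely Rbm46os opposite to Lrat, Ccdc33 opposite to and Gm16131 on the same strand as Stra6, and C730002L08Rik opposite to Aldh1a1. Where reads of these genes fell cannot be seen in the counts. Aldh1a1 has a close copy, Aldh1a7. The longest stretch their transcripts share is 100 bases, but the longest within the last 500 bases, where a 3′ library reads, is 24 bases.

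Start regions are shown for 3 of the 4 genes that differed at least 2-fold between mesothelial cells and fibroblasts in the values that follow, and the fourth, Aldh1a3, had none in the table used. Each is the 250 bases before a transcript start in RefSeq on GRCm38.p6, written 5′ to 3′ on the gene's strand. Capitals mark a match to one of the motifs searched on both strands: the hexamer AGGTCA, its close variant AGTTCA, the form GGGTCA with G first and the form GGTTCA with both changes, which nuclear receptors for retinoids bind as paired repeats, and the 7 letters GCGTGGG, a core recognised by zinc fingers of the WT1 and EGR type.
Aldh1a2, chr9:71215539-71215788, plus strand: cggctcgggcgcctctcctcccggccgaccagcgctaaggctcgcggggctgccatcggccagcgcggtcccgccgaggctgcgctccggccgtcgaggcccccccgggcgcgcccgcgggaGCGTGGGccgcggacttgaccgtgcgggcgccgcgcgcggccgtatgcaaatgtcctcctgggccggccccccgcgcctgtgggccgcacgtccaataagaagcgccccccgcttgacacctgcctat
Stra6, chr9:58128838-58129087, plus strand: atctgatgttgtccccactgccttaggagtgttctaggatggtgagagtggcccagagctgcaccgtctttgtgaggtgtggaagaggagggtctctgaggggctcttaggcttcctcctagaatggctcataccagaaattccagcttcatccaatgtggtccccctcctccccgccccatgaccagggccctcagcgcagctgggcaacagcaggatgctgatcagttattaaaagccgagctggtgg
Aldh1a1 at the start of the gene, chr19:20492333-20492582, plus strand: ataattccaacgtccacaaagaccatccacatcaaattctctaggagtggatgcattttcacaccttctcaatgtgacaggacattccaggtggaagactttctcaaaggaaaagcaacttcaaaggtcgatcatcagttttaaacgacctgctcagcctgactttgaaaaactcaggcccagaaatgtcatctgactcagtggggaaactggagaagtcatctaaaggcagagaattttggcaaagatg
Aldh1a1 at a start within the gene, chr19:20601718-20601967, plus strand: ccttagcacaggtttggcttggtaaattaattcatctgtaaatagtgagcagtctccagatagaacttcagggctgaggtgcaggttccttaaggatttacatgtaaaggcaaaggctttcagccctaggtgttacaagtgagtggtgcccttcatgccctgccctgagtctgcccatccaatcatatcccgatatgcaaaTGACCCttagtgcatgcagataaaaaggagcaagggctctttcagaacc
The Aldh1a2 region was 77.6% G or C, more than 97.6% of the 32851 windows of all genes, and had 40 CG dinucleotides, against medians of 52.4% and 6 over those windows. The Stra6 region, the first of 4 listed for the gene, was 56.4% G or C. It lies within the annotated body of Stra6 and not before the start of that body. The Aldh1a1 regions, both those listed, were 42.8% G or C with 3 CG dinucleotides and 46.4% with 1. Aldh1a2 held 1 GCGTGGG at 128 bases before the start, a motif found in 4.30% of all windows, which were not matched to it for G or C content. The Aldh1a1 region within the gene, whose last 7 bases are exon, held TGACCC, the reverse complement of GGGTCA, at 49 bases before the start. Single hexamers were in 38.6% of all windows and in 2 of the 14 windows listed for 7 of the genes, the other being before Rbp4. Direct repeats of a hexamer spaced by 1, 2 or 5 bases were in 0.426% of all windows and in 0 of these 14. These are matches of letters in a short window and say nothing about which factor acts there. Windows for Aldh1a3 and Crabp2 are not analysed here.

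Of 11789 barcodes in the table, 10947 passed limits of more than 800 and fewer than 100000 UMIs and less than 15% mitochondrial UMIs. They held 49202966 UMIs with a median of 2650 per cell. Marker genes placed 9717 of them in 20 classes. The 822 cells that passed markers of several lineages and the 408 that passed none were left out. Col1a1 and Dcn for fibroblasts, Upk3b, Wt1 and Msln for mesothelial cells and Rgs5 for pericytes were marker genes used to place cells. Their shares in those classes are therefore no independent check. Fibroblasts (5763 cells) had Col1a1 in 99.9% of cells and Dcn in 99.2%. They were divided by marker pairs into Rspo3 Cxcl14 fibroblasts (428 cells), Mfap4 Meox2 fibroblasts (1478), Pi16 Pcolce2 fibroblasts (738) and the remaining 3119. Mesothelial cells (528), the layer that covers the organ, had Upk3b in 92.6% of cells, Wt1 in 87.7% and Msln in 58.9%. They also had Col1a1 in 99.8% of cells, and 477 of them passed the fibroblast markers as well, while Pdgfra was in 17.8% of them against 63.9% of fibroblasts. Mural cells were 147 smooth muscle cells and 67 pericytes, and the pericytes were less pure, with Rgs5 in 91% but Myh11, a smooth muscle gene, in 40.3%. Digestive enzyme genes made up 51.5% of the UMIs of acinar cells, 15.4% in duct cells and about 1.03% in fibroblasts, which lowers the share left to other genes in acinar cells. Levels are CPM, that is UMIs of the gene per 1e6 UMIs of the class. A 3′ library counts transcripts by their ends with no length to correct for. Levels are compared between classes, and genes with each other only as shares of the UMIs of Aldh1a1, Aldh1a2 and Aldh1a3, whose capture may differ.

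Lrat, the enzyme that makes the stored retinyl ester, was almost unseen. The library held 22 Lrat UMIs in kept cells, each in a cell of its own, and all 22 cells were fibroblasts. The level over all fibroblasts was 1.11 CPM (95% interval 0.693 to 1.68). Mfap4 Meox2 fibroblasts held 7 of the UMIs, Rspo3 Cxcl14 and Pi16 Pcolce2 fibroblasts 2 each and the remaining fibroblasts 11, so the subsets could not be ranked. No Lrat UMI was found in mesothelial cells, where a count of 0 allows up to 1.19 CPM, or in mural cells, where it allows up to 4.56 CPM. At this depth a difference from the fibroblast level was not detectable in either class, since the ratio to fibroblasts could be up to 1.17 in mesothelial and 4.49 in mural cells. Pericytes, as a class of 67 cells, allowed up to 17.4 CPM.

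Few of the cells with a Lrat UMI held a UMI of another textbook gene of stellate cells, and the rate in fibroblasts of like depth was not set beside it. Of these 22 cells, 22 had Col1a1 and 16 had Pdgfra. Pdgfrb was in 3 of them, Plin2, which coats lipid droplets, in 3 and Acta2 in 1, and Des, Gfap, Ngfr and Rgs5 in 0. The summed level of the list Des, Gfap, Ngfr, Pdgfrb and Plin2 was 101 CPM in fibroblasts and 666 CPM in mural cells. No class could be named stellate from these markers.

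Rbp4, the retinol carrier of blood, was found mostly in fibroblasts, and above all in the Mfap4 Meox2 subset. It was at 43.1 CPM in Mfap4 Meox2 fibroblasts (37.4 to 49.4, 208 UMIs in 10.9% of cells), 19.7 CPM in Rspo3 Cxcl14 fibroblasts (13.6 to 27.7, 33 UMIs) and 6.35 CPM in Pi16 Pcolce2 fibroblasts (4.03 to 9.53, 23 UMIs). The remaining fibroblasts were at 18.9 CPM (16.2 to 21.8) and mesothelial cells at 23.0 CPM (17.9 to 29.0, 71 UMIs). The Mfap4 Meox2 subset was thus above the next class, and the Rspo3 Cxcl14, remaining fibroblast and mesothelial levels did not differ beyond counting error. Smooth muscle cells and pericytes lay at 13.4 CPM (5.79 to 26.4) and 14.1 CPM (2.91 to 41.3), on 8 and 3 UMIs. Lymphocytes and red blood cells, which should lack Rbp4, were together at 1.42 CPM, and T and NK cells had a UMI in 0.342% of 878 cells at a median of 1806 UMIs per cell. Acinar cells at 5.88 CPM (4.54 to 7.5) stood above that level, or at 12.1 CPM with the enzyme UMIs left out of the total. The 8 endocrine cells held 17 Rbp4 UMIs, 133 CPM (77.6 to 213), but 10 of these were in 1 cell and only 4 of the cells had any.

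Stra6, the receptor for the RBP4 complex, was found mainly in mesothelial cells. Of the 90 Stra6 UMIs in kept cells, 52 (57.8%) were in mesothelial cells, which were 528 of the 10947 cells. The level there was 16.8 CPM (12.6 to 22.1), with a UMI in 33 cells or 6.25% (4.34% to 8.67%). In fibroblasts it was 0.251 CPM (0.0817 to 0.587) on 5 UMIs, and mural, endothelial and Schwann cells, B cells and macrophages held none. Such counts of 0 allow up to 22.6 CPM in Schwann cells, 21.9 CPM in macrophages and 17.4 CPM in pericytes. These small classes could not be set apart from mesothelial cells. Acinar cells were at 1.99 CPM (1.25 to 3.01, 22 UMIs) and duct cells at 0.874 CPM on 2 UMIs. Dendritic cells held 1 Stra6 UMI, 4.59 CPM (0.116 to 25.6), an interval too wide to set them apart from mesothelial cells. T and NK cells held 2 Stra6 UMIs, 0.905 CPM (0.110 to 3.27), and lymphocytes and red blood cells together were at 0.568 CPM (0.0688 to 2.05). The acinar level, 4.10 CPM with the enzyme UMIs left out of the total, was higher than these, but the intervals overlapped at the level as measured. With each cell thinned to 800 UMIs the mesothelial share was 1.14% (0.418% to 2.46%) against 0.0174% in fibroblasts.

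Dhrs3, which returns retinal to retinol and so lowers the supply for retinoic acid, was spread over many lineages. Its highest levels were outside the fibroblasts, in duct cells at 83.4 CPM (72.0 to 96.2, 191 UMIs), macrophages at 83.0 CPM (45.4 to 139, 14 UMIs) and endothelial cells at 71.9 CPM (58.8 to 87.1, 105 UMIs). Smooth muscle cells followed at 55.3 CPM (38.1 to 77.7, 33 UMIs). No class differed from its neighbour in this order beyond counting error, though the ends of the order lay far apart. Fibroblasts were at 14.6 CPM (13.0 to 16.4) and mesothelial cells at 22.7 CPM (17.7 to 28.6). Acinar cells were at 25.8 CPM with the enzyme UMIs, 51.5% of their UMIs, kept in the total. Their level would be higher, and nearer the top of this order, with the enzyme UMIs left out. Acinar cells held 22.5% of the Dhrs3 UMIs in kept cells, against 22.9% in fibroblasts. Among fibroblasts Dhrs3 was at 8.37 CPM (4.58 to 14.0) in the Rspo3 Cxcl14 subset and between 12.7 and 15.9 CPM in the others. T and NK cells were at 14.5 CPM (9.90 to 20.4) and B cells at 29.2 CPM (17.3 to 46.1), whereas red blood cells held 1 UMI, 1.45 CPM. The fibroblast level did not differ from that of T and NK cells beyond counting error, and whether the latter express the gene or carry free RNA was not tested.

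Aldh1a1 was the most counted of the 9 genes, with 2847 UMIs, of which 63.1% were in fibroblasts and 20.3% in acinar cells. The enzyme is one of the retinal dehydrogenases and is widely used as a marker of progenitor-like cells. It was at 90.4 CPM over all fibroblasts (86.3 to 94.7), with a UMI in 23.3% of cells (22.2% to 24.5%). The fibroblast subsets were close to each other: 102 CPM in Mfap4 Meox2 (93.5 to 112), 95.1 CPM in Rspo3 Cxcl14 (80.9 to 111), 90.6 CPM in the remaining cells (84.7 to 96.7) and 71.8 CPM in Pi16 Pcolce2 fibroblasts (63.3 to 81.1). Only the last of these lay below its neighbour in the order beyond counting error. Smooth muscle cells were at 55.3 CPM (38.1 to 77.7) and mesothelial cells at 33.0 CPM (26.9 to 40.1). Aldh1a1 was thus higher in each fibroblast subset than in mesothelial cells.

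Acinar and duct cells carried Aldh1a1 too. Acinar cells were at 52.3 CPM (48.1 to 56.8), with a UMI in 32.7% of cells, and at 108 CPM when the enzyme UMIs were left out of the total. Duct cells were at 40.6 CPM (32.8 to 49.8). These levels were above those in T and NK cells (4.07 CPM, a UMI in 1.03% of cells), endothelial cells (3.43 CPM, 1.11 to 7.99) and macrophages (0 UMIs). Its close copy Aldh1a7 was found mainly in exocrine cells, at 31.6 CPM in acinar cells (28.4 to 35.1, 349 UMIs), 9.61 CPM in duct cells and 0.352 CPM in fibroblasts on 7 UMIs. The summed level of the acinar marker list was 85548 CPM in duct cells and 286733 CPM in acinar cells. The part of acinar RNA in the duct levels was not tested.

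Aldh1a2, the retinal dehydrogenase of embryonic mesoderm, marked the mesothelial cells. They were at 256 CPM (238 to 274, 790 UMIs), with a UMI in 319 cells or 60.4% (56.1% to 64.6%), and they held 45.4% of all Aldh1a2 UMIs. Fibroblasts were at 37.7 CPM (35.0 to 40.5, 749 UMIs), with a UMI in 9.60% of cells (8.85% to 10.4%). T and NK cells held 1 UMI, a share of 0.114%, and lymphocytes and red blood cells together were at 0.568 CPM, below the fibroblast level. The part of free RNA in the fibroblast level was not tested. Thinned to 800 UMIs, 18.4% of mesothelial cells and 2.97% of fibroblasts had a UMI.

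Aldh1a2 also varied among the fibroblasts. Rspo3 Cxcl14 fibroblasts were at 61.0 CPM (49.7 to 74.1, 102 UMIs), the remaining fibroblasts at 44.5 CPM (40.4 to 48.9), Pi16 Pcolce2 fibroblasts at 34.5 CPM (28.7 to 41.1) and Mfap4 Meox2 fibroblasts at 18.2 CPM (14.6 to 22.5, 88 UMIs). Dendritic cells at 36.7 CPM (15.9 to 72.4) and macrophages at 29.6 CPM (9.62 to 69.1) stood in the same range, on 8 and 5 UMIs. Of the 8 dendritic UMIs 4 were in 1 cell, and only 4 of the 55 dendritic cells had any. Aldh1a2 is known in dendritic cells of the gut, where its product acts on T cells. Acinar cells were at 2.26 CPM (1.46 to 3.34), or 4.66 CPM with the enzyme UMIs left out of the total. Both were higher than the level in lymphocytes and red blood cells, 0.568 CPM (0.0688 to 2.05), but the intervals overlapped at the level as measured. Duct cells were at 1.75 CPM, endothelial cells held 1 UMI, and Schwann cells and B cells held 0.

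Aldh1a3, the third of these enzymes, was highest among fibroblasts in the Pi16 Pcolce2 subset. They were at 62.4 CPM (54.5 to 71.1, 226 UMIs), with a UMI in 22.1% of cells (19.1% to 25.3%). The remaining fibroblasts were at 24.0 CPM (21.0 to 27.3), Rspo3 Cxcl14 fibroblasts at 13.8 CPM (8.72 to 20.6) and Mfap4 Meox2 fibroblasts at 9.11 CPM (6.62 to 12.2). Pi16 and the other markers of that subset are known from fibroblasts of the tissue planes around vessels and organ capsules. Schwann cells, the glia of peripheral nerves, reached the same level at 61.4 CPM (29.4 to 113), on 10 UMIs in 10 of 69 cells. Mesothelial cells were at 9.06 CPM (6.02 to 13.1, 28 UMIs, of which 6 in 1 cell), acinar cells at 3.08 CPM (2.13 to 4.30) and T and NK cells at 1.81 CPM on 4 UMIs. Dendritic cells at 27.6 CPM (10.1 to 60.0) rested on 6 UMIs, 5 of them in 1 cell.

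Crabp1 and Crabp2, the binding proteins of retinoic acid, were at the edge of detection, with 18 and 13 UMIs in kept cells and never more than 1 in a cell. Fibroblasts held 13 of the Crabp1 UMIs, 0.654 CPM (0.348 to 1.12), and acinar cells 3. Crabp2 was spread over fibroblasts (5 UMIs, of which 4 in the Mfap4 Meox2 subset), mesothelial cells (2), acinar cells (2) and T and NK cells (2), and no class could be ranked.

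**Figure D1:**
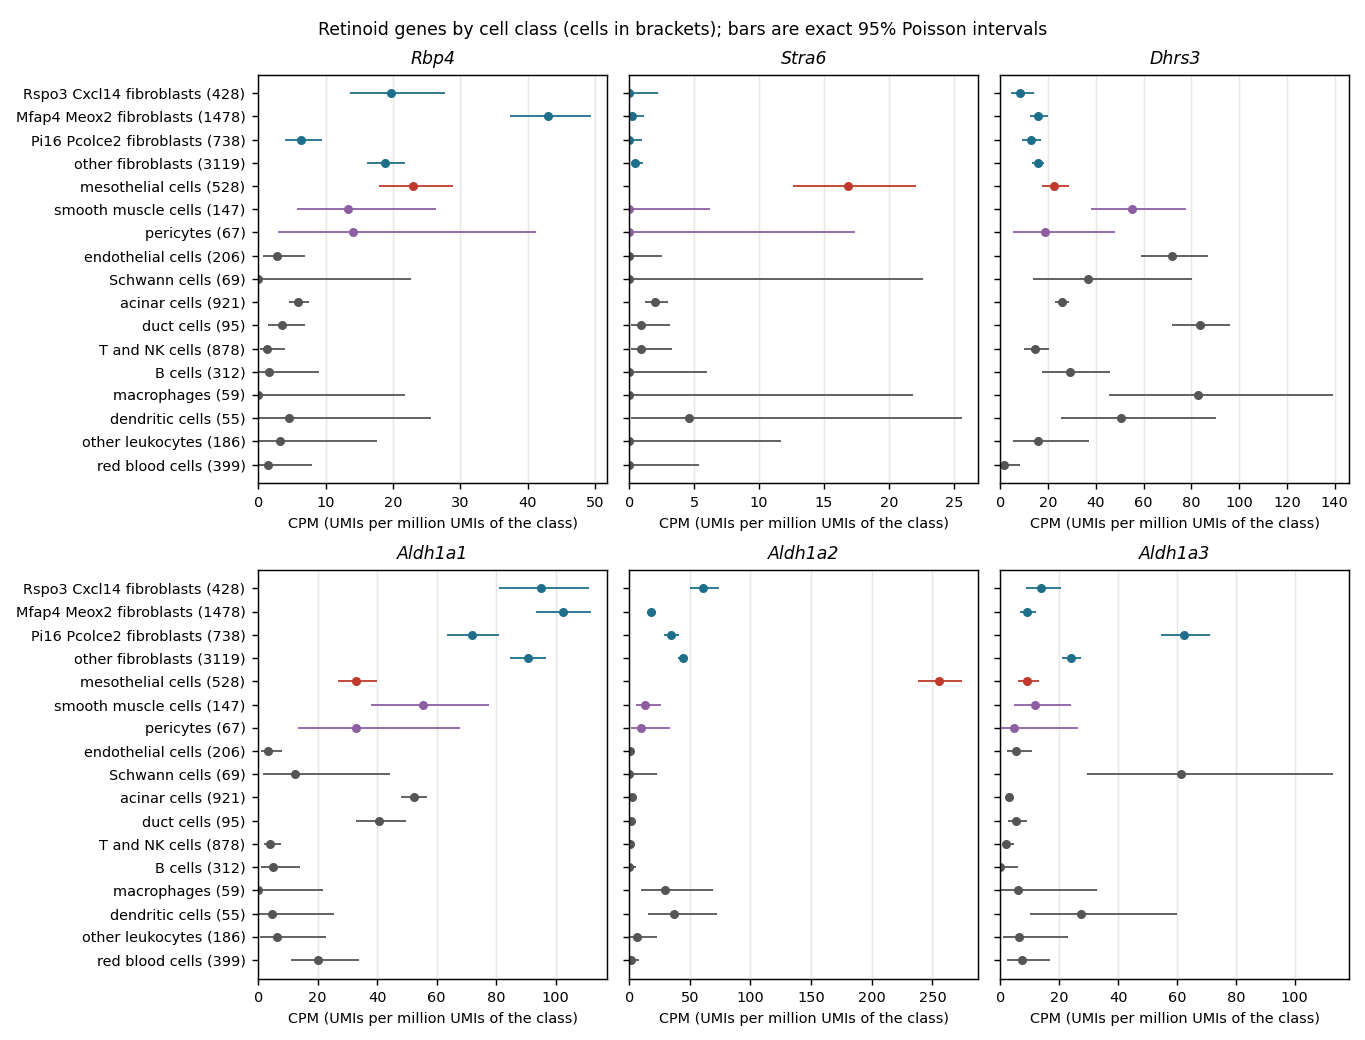
Levels of Rbp4, Stra6, Dhrs3, Aldh1a1, Aldh1a2 and Aldh1a3 in 17 cell classes, in CPM on the x axis of each panel, with the number of cells in brackets; points are the summed level of a class and bars the exact 95% Poisson interval. Of the classes drawn, mesothelial cells (red) are highest for Aldh1a2 at 256 CPM and for Stra6 at 16.8 CPM. For Stra6 the intervals of dendritic cells (1 UMI) and of Schwann cells, macrophages and pericytes (0 UMIs each) reach as far. The Mfap4 Meox2 subset of fibroblasts (blue) is highest for Rbp4 at 43.1 CPM, and for Aldh1a3 the Pi16 Pcolce2 subset at 62.4 CPM and Schwann cells at 61.4 CPM do not differ beyond counting error.

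The balance of the retinal dehydrogenases differed between classes. In mesothelial cells Aldh1a2 made up 85.9% of the summed UMIs of Aldh1a1, Aldh1a2 and Aldh1a3 (83.4% to 88.1%, 920 UMIs), against 24.4% in all fibroblasts (22.9% to 25.9%, 3073 UMIs). Aldh1a1 led in Mfap4 Meox2 fibroblasts with 78.9% (75.5% to 82.0%) and in Rspo3 Cxcl14 fibroblasts with 56.0%, where Aldh1a2 made up 35.9% (30.3% to 41.8%). Pi16 Pcolce2 fibroblasts had a mix of 42.6% Aldh1a1, 20.5% Aldh1a2 and 37.0% Aldh1a3 (33.1% to 41.0%). Mural cells, with 58 UMIs, were at 69.0% Aldh1a1 (55.5% to 80.5%), and acinar and duct cells at 90.7% and 85.3%. At least 1 of these enzymes was seen in 67.4% of mesothelial cells, 47.0% of Pi16 Pcolce2 fibroblasts and 34.3% of all fibroblasts, at median depths of 4023.5, 4076.5 and 2690 UMIs per cell.

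**Figure D2:**
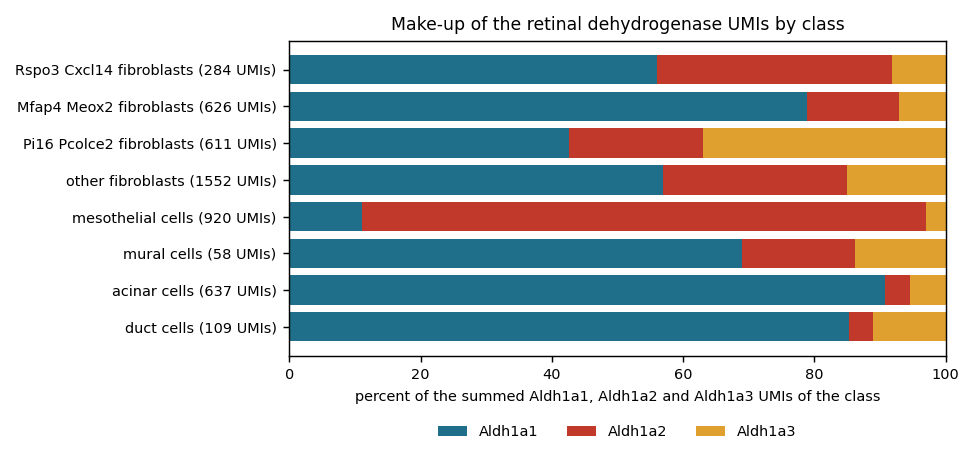
Shares of Aldh1a1 (blue), Aldh1a2 (red) and Aldh1a3 (yellow) in the summed UMIs of the 3 genes, in percent on the x axis, for 8 classes with the number of UMIs in brackets. Aldh1a2 fills 85.9% of the bar of mesothelial cells and Aldh1a1 has the largest share in the other classes, down to 42.6% in Pi16 Pcolce2 fibroblasts, where Aldh1a3 fills 37.0%.

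Mesothelial cells were next set against all fibroblasts, the class they share collagen genes with. Stra6 was 66.9-fold higher in mesothelial cells (26.9 to 215) and Aldh1a2 6.79-fold higher (6.13 to 7.51). Aldh1a1 and Aldh1a3 were lower, with ratios of 0.365 (0.296 to 0.446) and 0.342 (0.225 to 0.500). Rbp4 did not differ beyond counting error, at a ratio of 1.02 (0.783 to 1.31), and Dhrs3 was at 1.55 (1.18 to 2.02). Of the 7 genes with at least 20 UMIs over both classes, 2 were at least 2-fold higher and 2 at least 2-fold lower, where 14.1% of all 14430 genes were higher and 10.4% lower by the same measure. The median ratio was 1.02 over the 7 genes and 1.06 over all genes. In the 51 mesothelial cells that did not pass the fibroblast markers the ratio was 8.79 (6.81 to 11.2) for Aldh1a2 and 0.502 (0.240 to 0.925) for Aldh1a1, and with cells above 10000 UMIs left out the ratio of Aldh1a3 was 0.505. The Aldh1a3 ratio, on 28 mesothelial UMIs, reached 0.685 in those 51 cells, so its 2-fold size depends on the cells taken.

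**Figure D3:**
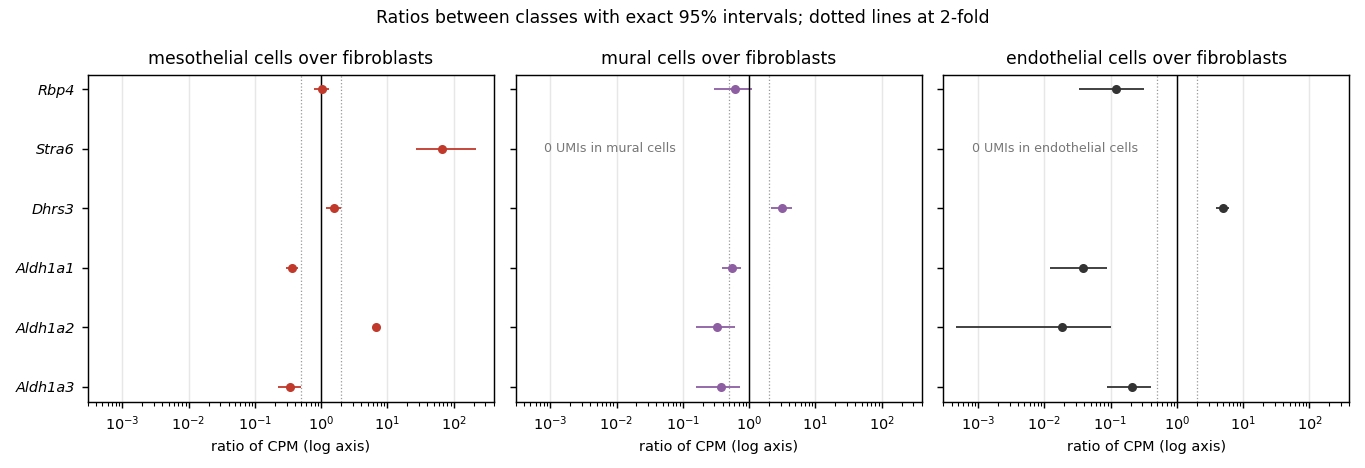
Ratios of the level in mesothelial, mural and endothelial cells to that in all fibroblasts, on a log x axis, for 6 genes; points are ratios of CPM, bars exact 95% intervals and dotted lines mark 2-fold. Aldh1a2 is at 6.79 in mesothelial cells and 0.0182 in endothelial cells, and Dhrs3 is to the right of 1 in all 3 panels.

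Mural cells, which include the pericytes often proposed as kin of stellate cells, had less of the dehydrogenases and more Dhrs3 than fibroblasts. Dhrs3 was 3.13-fold higher (2.16 to 4.42, 37 UMIs in mural cells). Of these UMIs 33 were in smooth muscle cells, at 55.3 CPM, and 4 in pericytes, at 18.8 CPM. Pericytes alone were not compared with fibroblasts, so the difference cannot be read as one of pericytes. Aldh1a2 was at a ratio of 0.328 (0.157 to 0.607), Aldh1a3 at 0.373 (0.160 to 0.740) and Aldh1a1 at 0.547 (0.389 to 0.748). Rbp4 was not distinguishable, at 0.603 (0.299 to 1.09), and Stra6 was not seen in mural cells, where 0 UMIs allow up to 4.56 CPM. The summed level of the fibroblast marker list was 17940 CPM in mural cells and 54557 CPM in fibroblasts. The part of fibroblast RNA in the mural levels was not tested. Among the 6 genes with enough UMIs, 1 was at least 2-fold higher and 2 at least 2-fold lower, against 13.6% and 7.15% of all genes, with a median ratio of 0.460 against 1.03.

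Within mural cells, pericytes and smooth muscle cells could be compared for 2 genes. Dhrs3 was lower in pericytes, with a ratio of 0.341 (0.0876 to 0.958) on 4 against 33 UMIs, and Aldh1a1 was at 0.596 (0.223 to 1.37). The count was thus 0 higher and 1 lower, where 7.81% of all genes were at least 2-fold higher and 9.1% lower.

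Endothelial cells had little of the dehydrogenases and more Dhrs3 than fibroblasts, a comparison added after the levels had been seen. Dhrs3 was 4.93-fold higher (3.91 to 6.19), with a UMI in 31.6% of endothelial cells, and 2.91% of them when thinned to 800 UMIs against 1.13% of fibroblasts. Aldh1a1 was at a ratio of 0.0379 (0.0123 to 0.0886), Rbp4 at 0.122 (0.0330 to 0.314) and Aldh1a3 at 0.207 (0.0888 to 0.410). Aldh1a2, on 1 endothelial UMI, was at 0.0182 (0.00046 to 0.102). Of 6 genes, 1 was at least 2-fold higher and 4 at least 2-fold lower, against 19.4% and 12% of all genes.

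The fibroblast subsets were compared each with the other 2 named subsets, since the remaining fibroblasts had no marker of their own. They were a remainder, with fewer than 2 UMIs of each marker pair or at least 2 of several pairs. At a median of 2376 UMIs per cell, they can hold cells of the named subsets. In Rspo3 Cxcl14 fibroblasts Aldh1a2 was 2.42-fold higher (1.89 to 3.08) and Aldh1a3 was at a ratio of 0.430 (0.268 to 0.660). Aldh1a1, at 1.07 (0.892 to 1.27), and Rbp4, at 0.722 (0.485 to 1.04), did not differ beyond counting error, and Dhrs3 was at 0.575 (0.305 to 1.00). That made 1 of 5 genes at least 2-fold higher and 1 lower, against 2.71% and 4.91% of 12579 genes. When classes were taken from graph clusters instead, the Aldh1a2 ratio was 1.45 (1.21 to 1.73), so its 2-fold size rests on the marker pair.

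In Mfap4 Meox2 fibroblasts Rbp4 was 4.07-fold higher (3.02 to 5.57) and Aldh1a1 1.29-fold higher (1.13 to 1.48). The other dehydrogenases were lower, Aldh1a2 at a ratio of 0.425 (0.329 to 0.546) and Aldh1a3 at 0.194 (0.137 to 0.268). Dhrs3 was at 1.41 (0.991 to 2.01). Here 1 of 5 genes was at least 2-fold higher and 2 lower, against 6.96% and 4.77% of all genes.

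Pi16 Pcolce2 fibroblasts had the opposite pattern for Rbp4 and Aldh1a3, with Aldh1a3 6.05-fold higher (4.59 to 8.07) and Rbp4 at a ratio of 0.171 (0.107 to 0.263). This is largely the same contrast seen from the other side. Mfap4 Meox2 fibroblasts gave 208 of the 241 Rbp4 UMIs set against Pi16 Pcolce2 fibroblasts. Pi16 Pcolce2 fibroblasts gave 226 of the 249 Aldh1a3 UMIs set against Mfap4 Meox2 fibroblasts. Aldh1a1 was at 0.714 (0.616 to 0.826), while Aldh1a2, at 1.18 (0.934 to 1.49), and Dhrs3, at 0.907 (0.622 to 1.31), did not differ beyond counting error. Here 1 of 5 genes was at least 2-fold higher and 1 lower, against 4.94% and 9.67% of all genes, a count not independent of that for Mfap4 Meox2 fibroblasts. From graph clusters the Aldh1a3 ratio was 3.6 (2.99 to 4.36). The 3 subsets thus each led in a different gene, Aldh1a2, Rbp4 and Aldh1a3, while Aldh1a1 stayed within a range of 71.8 to 102 CPM.

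Mesothelial cells fell into 2 groups when cells were clustered without any of the 9 genes or the pathway genes. A group with more Msln held 198 cells and a group with less Msln 317, and 13 cells lay elsewhere. Aldh1a2 was at the same level in both, 268 CPM (240 to 298) and 253 CPM (230 to 278), a ratio of 1.06 (0.915 to 1.22). Rbp4 was higher in the Msln-rich group, 36.6 CPM (26.8 to 48.8) against 13.6 CPM (8.74 to 20.3), a ratio of 2.68 (1.6 to 4.59). Stra6 was higher in the Msln-poor group, at 23.9 CPM (17.2 to 32.3, 42 UMIs) against 7.95 CPM (3.81 to 14.6, 10 UMIs), and the ratio of rich to poor was 0.333 (0.149 to 0.675). Dhrs3 was 2.07-fold higher in the Msln-poor group (1.19 to 3.75). Aldh1a1 and Aldh1a3 did not differ beyond counting error. A Stra6 UMI was in 2.02% of the Msln-rich and 9.15% of the Msln-poor cells. By these levels the carrier of retinol in blood was higher in the Msln-rich group and the receptor for it in the Msln-poor group. Of 6 genes, 1 was at least 2-fold higher and 2 lower in the Msln-rich group, against 4.97% and 5.05% of 10571 genes. A doublet caller marked 13.6% of the Msln-poor and 4.04% of the Msln-rich cells, and their median depths were 3963 and 4354.5 UMIs. The split was chosen after seeing the data and was not repeated without the marked cells. Pdgfra was at 70.5 CPM in the Msln-poor and 24.6 CPM in the Msln-rich group, and the part of fibroblast RNA in these differences was not tested.

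**Figure D4:**
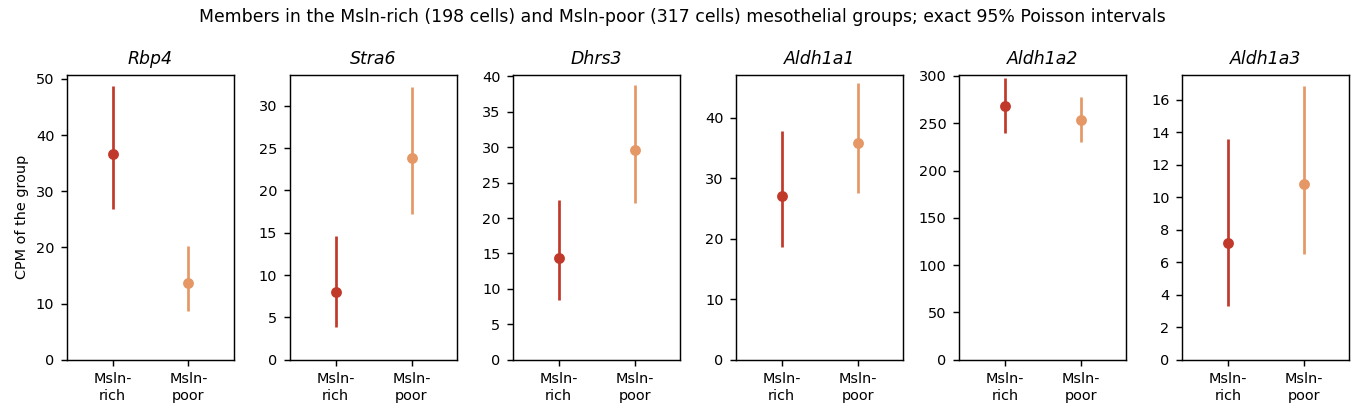
Levels of 6 genes in CPM on the y axis, from 0, in the Msln-rich (198 cells, dark) and Msln-poor (317 cells, light) groups of mesothelial cells, with exact 95% Poisson intervals as bars. Rbp4 is higher in the Msln-rich group, 36.6 against 13.6 CPM, Stra6 in the Msln-poor group, 23.9 against 7.95 CPM, and Aldh1a2 is alike in both, 268 and 253 CPM.

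The rest of the retinoid pathway was read from a list of 43 genes, of which 31 had at least 20 UMIs over mesothelial cells and fibroblasts. In mesothelial cells 10 of them were at least 2-fold higher and 4 lower, with a median ratio of 1.12, where 14.1% and 10.4% of all genes were, with a median of 1.06. The share that was lower was near that of all genes. Dhrs9, a retinol dehydrogenase, was 91.7-fold higher (51.2 to 181), at 55.4 CPM (47.4 to 64.3) on 171 UMIs against 12 in fibroblasts. Genes known to respond to retinoic acid went both ways, with Hoxb5 lower. Higher were Rarres1 24.4-fold (17.1 to 35.7), Tgm2 7.92-fold (7.1 to 8.85), Rarres2 5.26-fold (5.10 to 5.44) and the receptor gene Rarb 2.30-fold (1.91 to 2.76). Rarres2 was at 3765 CPM in the Msln-rich and 1156 CPM in the Msln-poor mesothelial group. Rarb went the other way, at 24.6 and 72.7 CPM. Whether retinoic acid acted in these cells was not tested. Fabp5, which carries retinoic acid and fatty acids, was 8.86-fold higher (8.33 to 9.43).

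Genes lower in mesothelial cells were on either side of the same steps. Cyp26b1, which breaks retinoic acid down, had 1 UMI in mesothelial cells and 103 in fibroblasts, a ratio of 0.0625 (0.00157 to 0.356). Adh1, an alcohol dehydrogenase that oxidises retinol, was at 0.106 (0.0424 to 0.220) and Lpl, lipoprotein lipase, at 0.0959 (0.0874 to 0.105). Hoxb5, a gene known to respond to retinoic acid, was at 0.477 (0.337 to 0.658). Rdh10, the main retinol dehydrogenase of the embryo, was at 1.31 (1.09 to 1.56). Other genes listed for the oxidation of retinol or the reduction of retinal were also higher. Dhrs4 was at a ratio of 2.67 (2.23 to 3.19), Adh5 at 1.57 (1.29 to 1.90) and Rdh14 at 1.45 (1.14 to 1.82). Which way these steps run in the cells was not tested.

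Between the fibroblast subsets 29 pathway genes could be counted, and few passed 2-fold. Rspo3 Cxcl14 fibroblasts, which led for Aldh1a2, also had more Adh1, 3.39-fold (2.43 to 4.68), and more Cyp26b1, 3.61-fold (1.93 to 6.64), and 0 genes were 2-fold lower, against 2.71% and 4.91% of all genes. Mfap4 Meox2 fibroblasts had more Tgm2, 6.18-fold (4.63 to 8.39), and more Rdh5, 2.16-fold, with Rarb lower at a ratio of 0.414, against 6.96% of all genes higher and 4.77% lower. In Pi16 Pcolce2 fibroblasts 0 genes were 2-fold higher and 5 lower, among them Tgm2 at 0.0716, Cyp26b1 at 0.306 and Adh1 at 0.459, against 4.94% of all genes higher and 9.67% lower.

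In mural cells 3 of 30 pathway genes were at least 2-fold higher than in fibroblasts, Rbp7 at 5.41-fold, Rdh5 at 3.07-fold and Tgm2 at 2.17-fold, and 3 were lower, among them Rdh10 at a ratio of 0.333 and Adh1 at 0.173. These counts were near the background of 13.6% and 7.15% of all genes. Of 15 genes that could be compared between pericytes and smooth muscle cells, 0 were higher and 2 lower, Rxra and Tgm2, against 7.81% and 9.1% of all genes. Endothelial cells had 7 of 30 higher and 5 lower, near the background of 19.4% and 12%. Rbp7, a retinol carrier of vessel and fat cells, was 211-fold higher there (162 to 279), at 625 CPM against 2.97 CPM in fibroblasts. Ttr, the partner of RBP4 in blood, was at 417 CPM in duct cells (391 to 444) and 162 CPM in acinar cells (154 to 169), against 5.03 CPM in fibroblasts. The level of Ttr in the 8 endocrine cells was not taken, so duct cells cannot be called its highest class.

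For each of the 5 genes with at least 100 UMIs, the most alike genes were sought among 13062 genes by Pearson's r of log2(CPM + 10) over 17 classes, which share 1 library and differ in depth. Rbp4 was most like Prlr, the prolactin receptor (r = 0.909), Lox, a collagen cross-linking enzyme (r = 0.908), and Gm26911 (r = 0.898). Aldh1a1 was most like Sec16b, Gorasp1 and Tcea3 (r = 0.916, 0.903 and 0.902). Aldh1a2 was most like C3, a complement gene at 2078 CPM in mesothelial cells (r = 0.861), Rab7b (r = 0.860) and Grin2d (r = 0.844). Aldh1a3 was most like Slc44a5, Fst and Radil (r = 0.889, 0.835 and 0.828), all highest in Schwann cells, a class of 69 cells. Dhrs3 was most like Rassf3, Pnpla2 and Kmt5a (r = 0.876, 0.862 and 0.834). These values describe the 17 classes and carry no test.

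Cells that held one member often held more UMIs in all, so shared detection can only be described. Of the 33 mesothelial cells with a Stra6 UMI, 27 (81.8%) also had Aldh1a2, against 59.0% of the mesothelial cells without Stra6, at median depths of 5656 and 3939 UMIs. In fibroblasts 63 of 553 cells with Aldh1a2 (11.4%) also had Aldh1a3, against 6.39% of the others, at 3718 and 2612 UMIs. In acinar cells 35.9% of those with Aldh1a1 had Dhrs3 against 11.9% of the others, but their median depths were 15979 and 3832 UMIs. Depth and co-expression cannot be told apart in these shares.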

How the data were processed

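The authors deposited raw UMI counts per gene and barcode for 1 library, and the submitters' processing notes name Cell Ranger 7.1.0 and mm10. The study's methods give default parameters, under which that release counts intronic as well as exonic reads. The table held 51540177 UMIs, from 500 to 174899 per barcode. Cells were kept above 800 and below 100000 UMIs and under 15% mitochondrial UMIs, a wider upper limit than the study's, and placed in classes by 11 gates on marker UMIs, the number of distinct markers and marker UMIs per 10000. A mesothelial cell, for example, needed 4 UMIs of 3 markers and 10 per 10000. Cells past the gates of several lineages were left out, with some exceptions. Mesothelial, mural and Schwann cells could also pass the fibroblast gate, as 477 of 528 mesothelial cells did. A duct cell could pass the acinar gate with under 2000 acinar marker UMIs per 10000. A cell past the endothelial and pericyte gates went to the class with at least 3 times the other's marker rate. Past the smooth muscle and pericyte gates, it went to the class with the higher rate. Scrublet (expected rate 0.08) marked 537 kept cells, 11.0% of mesothelial cells and 2.24% of fibroblasts, which were removed only as an alternative.

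UMIs were summed per class and given as CPM with exact 95% Poisson intervals, ratios with exact conditional binomial intervals and shares with Clopper-Pearson intervals. The limit given for a count of 0 is the upper end of its exact 95% Poisson interval. A gene was counted in a comparison from 20 UMIs over both classes, and called at 2-fold with the lower count taken as at least 3. Clusters were made without the members and pathway genes (2000 variable genes, 30 components, 20 neighbours, Leiden resolution 1.5). The calculation was tested on simulated data. All 9 members were named, pathway genes were named from a fixed list, and the 3 genes most alike were named for each member with at least 100 UMIs. Promoter windows were read from RefSeq for GRCm38.p6, and a table of proteins was not used here.

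The members and lists were chosen with earlier results of these data known, and the gate thresholds were set after the members' values had been seen. The endothelial comparison, the split of mesothelial cells, the minimum of 3 in the 2-fold calls and the alternative without mesothelial cells past the fibroblast gate were chosen after seeing the data. Versions were Python 3.11.15, numpy 2.4.6, scipy 1.17.1, pandas 2.3.3 and scanpy 1.11.5.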

Additional observations from a re-analysis of the deposited data

How the results depend on the processing

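Over the filters, gates, doublet removal, clusters and scalings tried, 266 of 281 ratios between classes moved by less than their own interval, 15 moved by more, and 0 of those whose main interval excluded 1 crossed 1. The Rbp4 ratio of mesothelial cells to fibroblasts, 1.02, lay on either side of 1 (0.604 to 1.07), as did Aldh1a1 in Rspo3 Cxcl14 fibroblasts (0.931 to 1.34) and Dhrs3 in Pi16 Pcolce2 fibroblasts (0.709 to 1.10). The ratio of mesothelial cells to fibroblasts ranged from 6.27 to 8.79 for Aldh1a2, from 41.2 to 126 for Stra6, from 0.309 to 0.502 for Aldh1a1, from 0.272 to 0.685 for Aldh1a3 and from 1.48 to 89.9 for Dhrs3. In the 51 mesothelial cells under the fibroblast gate, an alternative chosen after seeing the data, these were 8.79 for Aldh1a2 and 0.502 for Aldh1a1, with 1 gene at least 2-fold higher and 0 lower, Stra6, at a ratio of 126 on 7 UMIs, was under the 20 UMIs needed to be counted, and Dhrs3 had 0 UMIs there. An upper limit of 10000 UMIs left 1 gene at least 2-fold lower in mesothelial cells. Subtracting the level in lymphocytes and red blood cells left Dhrs3 at 0.0909 CPM in fibroblasts, so its ratio to fibroblasts was 89.9 in mesothelial, 344 in mural and 632 in endothelial cells, which rests on that small remainder. Stra6 in fibroblasts, at 0.251 CPM, was below the 0.568 CPM to be subtracted, so its mesothelial ratio was not given under that setting. The Dhrs3 ratios between fibroblast subsets could not be given there either. With classes from graph clusters the ratio of Aldh1a2 in Rspo3 Cxcl14 fibroblasts was 1.45 and that of Aldh1a3 in Pi16 Pcolce2 fibroblasts 3.6. Mural cells were then 194 smooth muscle cells and 0 pericytes, and their count of lower genes was 4 in place of 2. The count of higher genes in Rspo3 Cxcl14 fibroblasts was then 0 in place of 1. That of lower genes in Mfap4 Meox2 fibroblasts was 1 in place of 2, as also with doubled gates. No cluster stood for endothelial cells or pericytes, so these ratios were not given there. The cause of these shifts was not tested. No paired analysis was possible because there was 1 library. Depth limits Lrat, Crabp1 and Crabp2 to counts of a few UMIs.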
